A study of Mus musculus with 10 samples.

Results

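Mammary normal fibroblasts (NFs) and tumor cells that had grown in the same collagen gel were compared with each other by RNA sequencing of the sorted cells. All fibroblast and tumor libraries of the 2 gels that held both cell types, named gels 4 and 5, were taken, which gave 6 of the 10 libraries of the series. In either gel these were 1 library of CD26- NFs, 1 of CD26+ NFs and 1 of tumor cells. The other 4 libraries came from cells grown alone and served for the contrast of cells alone: both NF subsets from gel 1 and tumor cells from gels 2 and 3.

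NFs had been sorted from mammary glands of mTmG mice, aged 8 weeks per the labels, in which every cell is red until Cre recombinase turns it green. CD26, the product of Dpp4, separated the NF subsets, and glands of several mice were pooled for a sort. CD26+ NFs had been made green with a Cre-carrying adenovirus and were mixed in equal parts with red CD26- NFs in each gel, so exposure to virus and subset cannot be told apart. The tumor cells derived from mice whose mammary epithelium loses Cdh1 through Wap-driven Cre, as a model of invasive lobular carcinoma. Gels 2 and 4 held the tumor line 13-MCB-17, and gels 3 and 5 held the line 10-SJK-221. Each line stands for 1 tumor, and line and gel cannot be told apart. Gels were dissolved after 7 days and cells were sorted by color, with tumor cells taken as those that were neither red nor green. Only 1 gel held NFs alone, so shared culture of NFs and chance features of that gel cannot be told apart. The labels do not say that gels came from separate cell batches, and p-values measure the spread between these libraries. Each NF subset alone had 1 library, so NFs alone added nothing to that spread. Tests that involve NFs alone therefore borrow the spread of tumor cells and of NFs from shared gels.

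Fibroblasts and carcinoma cells exchange signals in both directions. Secreted ligands of one cell type bind receptors of the other, and fibroblasts build the collagen matrix and, through matrix metalloproteinases (MMPs), also cut it. In culture, fibroblasts exposed to tumor cells can take on features of cancer-associated fibroblasts, either contractile or cytokine-producing.

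Expression is given in CPM (counts per library, scaled to a common total). For NFs of the shared gels, values are listed in the order CD26- NFs of gel 4, CD26+ NFs of gel 4, CD26- NFs of gel 5 and CD26+ NFs of gel 5, and for tumor cells in the order gel 4, gel 5. For cells alone the order is CD26- NFs, CD26+ NFs, and for tumor cells gel 2, gel 3. All log2 fold changes are NFs relative to tumor cells, so that positive values are higher in NFs, and each is followed by its standard error (SE). A gene was called at an adjusted p under 0.05 in edgeR's quasi-likelihood test with Benjamini-Hochberg adjustment over all 17048 genes tested. Positions are in GRCm38.

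Fibroblast and epithelial markers set NF libraries apart from tumor libraries, and NF libraries from shared gels held epithelial transcripts at a low level. Dpp4 was too low to check the NF subset labels. Libraries held 14142334 to 18408940 counts, and 3 counts, the most that an observed 0 allows, corresponded to 0.163 to 0.212 CPM. The summed level of 15 fibroblast markers was 76740 to 83660 CPM in NFs alone, 27550 to 50610 CPM in NFs of shared gels, 219 to 480 CPM in tumor cells alone and 389 to 688 CPM in tumor cells of shared gels. The summed level of 15 epithelial markers was 5034 to 6995 CPM in the tumor libraries and 1.74 to 4.21 CPM in NFs alone, where 10 of the 15 were at 0. In NFs of shared gels this sum was 149 to 364 CPM and none of the 15 was at 0. The epithelial surface protein gene Epcam, which defines the cell type, was at 6.42, 8.41, 7.14 and 15.9 CPM in these NF libraries, 335 and 358 CPM in tumor cells of the same gels and 0 CPM in both libraries of NFs alone. Cdh1 was counted at 144 and 139.9 CPM in tumor cells of shared gels, and counts per gene do not test whether its deletion took place.

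**Figure D1:**
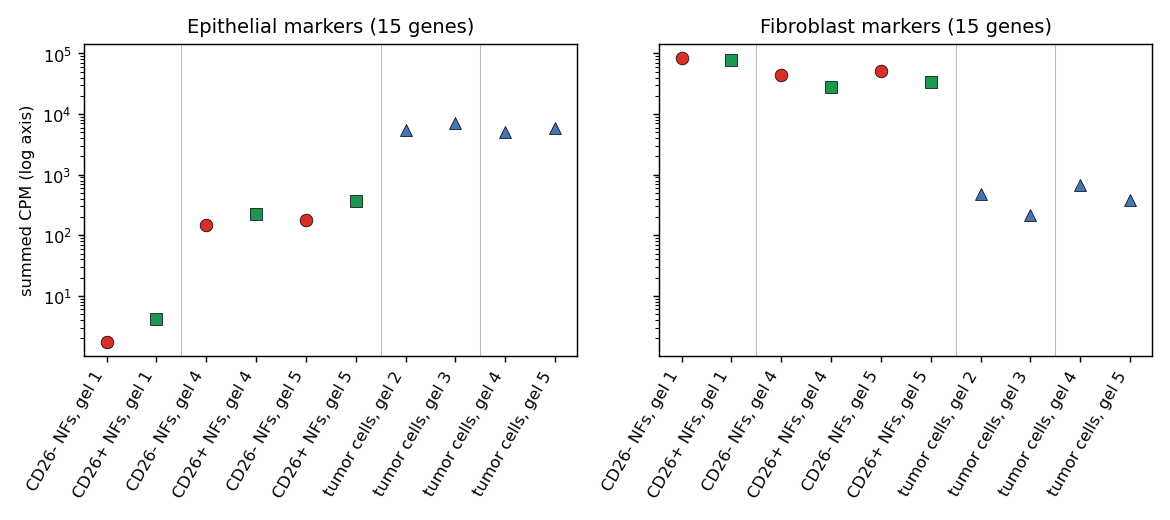
Summed CPM of 15 epithelial markers and of 15 fibroblast markers in each of the 10 libraries, on logarithmic axes. Epithelial markers reached 149 to 364 CPM in the 4 NF libraries of shared gels against 1.74 to 4.21 CPM in NFs alone, and stayed under the 5034 to 6995 CPM of tumor libraries.

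To put a size on this signal, genes at 50 CPM or more in tumor cells and at 3 counts or fewer in either library of NFs alone were taken. Their median level in NFs of shared gels was 1.94, 3.10, 2.30 and 4.44% of that in tumor cells of the same gel. In the other direction the median was 0.0595% in gel 4 and 0.0513% in gel 5. These shares cannot tell RNA or cells carried over in the sort from low expression induced in the cells themselves. Every comparison was therefore also computed after that share of the other cell type's counts had been subtracted, and calls that this changed are given beside the named results. The 41 genes that set the share in NFs include Epcam, Cdh1, Cldn4, Krt18, Il1a, Pkp1, Wfdc2 and Wnt7b. For these genes a call lost after subtraction follows largely from how the share was set, as for the change of contrast of Epcam and Cdh1 (adjusted p = 1 for both). In bulk samples, fewer cells of a type and less RNA per cell cannot be told apart.

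NFs and tumor cells of the same gels differed at most tested genes. In shared gels 9519 of 17048 genes were called (55.8%), of which 5054 were higher in NFs (29.6%) and 4465 in tumor cells (26.2%). The 4 NF libraries lay above both tumor libraries for 4803 genes (28.2%) and below both for 6240 genes (36.6%). The median log2 fold change of all tested genes was 0.06.

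By fitted log2 fold change, the genes placed highest in NFs were at 0 counts in both tumor libraries, where that fit has no set size, so they need not have the largest folds. They were Pygl (liver glycogen phosphorylase), Stc2 (the secreted glycoprotein stanniocalcin 2), Olfm1, Peg3 (an imprinted gene), Slc6a17 and Pcsk5 (a proprotein convertase). Stc2 was at 77.3, 73.2, 85.4 and 90.4 CPM in NFs of shared gels and at 6.33 and 4.91 CPM in NFs alone. NF levels of all 6 genes ranged from 49.2 to 127 CPM in shared gels, and folds over tumor cells were at least 416 (Pcsk5) to at least 499 (Pygl), set against the 3-count floor. Stc2 was higher in NFs of shared gels than in NFs alone (log2 change 3.91 ± 0.17, adjusted p = 1.84e-05), and Pcsk5 was lower (-1.35 ± 0.13, adjusted p = 0.000345).

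At the other end of the same order were the purinergic receptor P2ry12, Muc20, the potassium channel Kcnk1, the tight junction protein Cldn7, the laminin-332 chain Lama3 and Mab21l4. Lama3 was at 10.8, 18.3, 19.9 and 20.5 CPM in NFs and 761 and 931 CPM in tumor cells (log2 fold change -5.42 ± 0.20, adjusted p = 2.5e-07). The groups did not overlap, and the log2 fold changes of the other 5 genes lay between -5.70 and -5.38. An overlapping gene covers 15.6% of the exon bases of Muc20. NF levels of these genes were close to the tumor RNA share given above, and its part in their fold changes was not tested. After subtraction the change of contrast against cells alone was no longer called for P2ry12, Kcnk1 and Cldn7 and turned its direction for Lama3.

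Cells alone differed more widely than cells that had shared a gel. Alone, NFs and tumor cells came from different gels, so cell type and gel cannot be told apart in that contrast. In shared gels the contrast lay within gels, and the part of gel differences in the wider contrast was not tested. Alone, 10078 genes were called (59.1%), 5216 higher in NFs (30.6%) and 4862 in tumor cells (28.5%). Median absolute log2 fold change over all tested genes was 1.056 alone and 0.812 in shared gels, or 0.841 after subtraction. Of 6828 genes called in both settings, 6232 had the same direction and 596 the opposite one. Both contrasts share the model's estimate of spread, and no library is in both.

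The change of the contrast itself, its log2 fold change in shared gels minus that alone, was called for 4415 genes (25.9%). It was called for 2892 without CD26- NFs of gel 5, and for 584 without gel 4 and 909 without gel 5, in smaller fits without the block. In these smaller fits 4210 and 4005 genes were called in shared gels. For 1605 of the 4415 genes a higher level in tumor cells shrank (9.41% of tested genes), and for 1084 a higher level in NFs shrank (6.36%). The contrast grew towards NFs for 545 genes (3.2%) and towards tumor cells for 585 (3.43%). It switched sides, with both contrasts called, to NFs for 328 genes (1.92%) and to tumor cells for 268 (1.57%). Where a group stood at 3 counts or fewer it was set at 3 counts to see whether the class held. It held so for 492 genes, could not be decided for 151, and did not bear on 3772.

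Most of this change was called in the NF arm, which sets NFs of shared gels against NFs alone. This arm rests on the only gel of NFs alone, so chance features of that gel fall in it. Among the 4415 genes, only the NF arm was called for 3329 and only the tumor arm for 270. Both moved for 494 and neither was called for 322. The NF arm was the larger one for 3513 genes (79.6%). Over all tested genes, NFs differed between shared gels and alone at 7596 (44.6%) and tumor cells at 1050 (6.16%). After subtraction of carried-over counts, 3787 genes were called. Among genes whose tumor-side difference had shrunk, 1242 of 1605 kept their class and 346 were no longer called. Where an NF excess had shrunk, 872 of 1084 kept their class and 210 were no longer called. Class was kept by 509 of 545 that grew towards NFs and 510 of 585 that grew towards tumor cells. It was kept by 312 of 328 that switched to NFs and 230 of 268 that switched to tumor cells.

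Genes were taken from each class in the order of the fitted change, which has no set size where a group stood at or near 0 counts, so this is no ranking of measured changes. From differences that shrank on the NF side these were H19 (an imprinted noncoding RNA of growing tissue), Scn7a (a sodium channel), Chl1 (a cell adhesion protein) and Ecrg4 (a secreted peptide precursor). H19 was at 266 and 465 CPM in NFs alone and 0 CPM in both libraries of tumor cells alone, at least 1916-fold higher. In shared gels it was at 26.8, 15.2, 33.6 and 14.1 CPM in NFs and 79.1 and 1.996 CPM in tumor cells, so the groups overlapped and the tumor lines stood apart from each other. Without the tumor library of gel 5 its contrast in shared gels was called, at a log2 fold change of -1.82. Scn7a and Chl1 were at 199.6 and 79.3 CPM and 344 and 222 CPM in NFs alone. Both were at under 1 CPM in every library of the shared gels. Ecrg4 fell from 260.3 and 336 CPM in NFs alone to 0.545, 1.35, 0.748 and 1.84 CPM, and its remaining NF excess in shared gels (adjusted p = 0.0401) was lost when any 1 NF library of shared gels or the tumor library of gel 5 was left out.

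From those that shrank on the tumor side the genes were Il1a (the alarm cytokine interleukin-1 alpha), Krt18 (a simple epithelial keratin), Pkp1 (the desmosomal protein plakophilin 1) and Wfdc2. None of the 4 had a count in NFs alone. Il1a was at 21.6, 19.7, 17.3 and 19.8 CPM in NFs and 374 and 401 CPM in tumor cells of shared gels (log2 fold change -4.11 ± 0.17, adjusted p = 3.19e-07), against 936 and 645 CPM in tumor cells alone. Krt18 was at 23.03, 36.6, 33.1 and 76.9 CPM in NFs and 1172 and 1468 CPM in tumor cells. All 4 genes are among those that set the share. After subtraction the change of contrast was no longer called for Krt18 (adjusted p = 0.313) and Wfdc2 (adjusted p = 1), and was still called for Il1a (adjusted p = 0.00074) and Pkp1 (adjusted p = 0.0137). The part of carried-over RNA in these changes was not tested.

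Differences that grew towards NFs included that of Lamc3, which encodes the laminin gamma 3 chain of basement membrane. Lamc3 was at 145, 114, 136 and 109 CPM in NFs and 0.283 and 0.114 CPM in tumor cells of shared gels. Alone it was at 0.807 and 0.211 CPM in NFs and 1.03 and 0.573 CPM in tumor cells. The contrast rose from -0.83 to 9.44 (change 10.27 ± 0.57, adjusted p = 3.38e-05), and every NF library of the shared gels lay above every other library. The potassium channel Kcnh1 rose from 0.869 and 1.82 CPM in NFs alone to 31.9, 25.7, 25.1 and 18.9 CPM, and the transporter Slco4a1 from 1.93 and 0.632 CPM to 74.7, 50.8, 63.4 and 65.1 CPM (change 7.85 ± 0.84, adjusted p = 0.000447). Cox4i2, an oxygen-responsive subunit of cytochrome c oxidase, was at 36.1, 25.4, 31.8 and 36.5 CPM in NFs of shared gels and at most 0.421 CPM elsewhere. Its change of contrast was close to the threshold (adjusted p = 0.0439) and was lost when any 1 of the 6 libraries of shared gels was left out and after subtraction (adjusted p = 0.0524).

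Among the genes so taken, growth towards tumor cells was smaller. F13a1, coagulation factor XIII A, was at 17.3 and 23.6 CPM in tumor cells of shared gels and 0.163 and 0.318 CPM in tumor cells alone, and NFs held at most 1.21 CPM in any library (change -5.26 ± 0.61, adjusted p = 0.000653). Stxbp6, Gdpd2 and Tmem8 differed in the other way, with NFs that fell. Stxbp6 fell from 3.97 and 14.9 CPM in NFs alone to 0.424, 0.964, 0.0575 and 0.566 CPM while tumor cells held 12.6 and 12.8 CPM in shared gels. The changes were -4.41, -4.37 and -4.01 for Stxbp6, Gdpd2 and Tmem8. An overlapping gene covers 17.3% of the exon bases of Gdpd2.

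By the same order, switches went to NFs for Gsta2 (a glutathione transferase), Clec4e (a pattern recognition receptor of myeloid cells) and Upp1 (uridine phosphorylase), and to tumor cells for Capn6. Upp1 was at 67.5 and 53.4 CPM in tumor cells alone and had 0 and 0.0702 CPM in NFs alone. In shared gels it was at 54.8, 50.8, 33.5 and 55.9 CPM in NFs and 25.4 and 34.8 CPM in tumor cells, and these ranges met, with 1 NF library under the higher tumor library. Its NF excess was lost without tumor cells of gel 4 or without CD26+ NFs of gel 5. Clec4e was at 2.73, 11.7, 2.24 and 10.6 CPM in NFs, higher in CD26+ than in CD26- NFs in both gels, and 1.81 and 1.65 CPM in tumor cells. With CD26- NFs only its excess was not called (log2 fold change 0.80). Capn6 was at 35.02 and 87.7 CPM in NFs alone and at 0.121, 0.771, 0.4604 and 0.9899 CPM in NFs of shared gels against 1.64 and 2.17 CPM in their tumor cells. The excesses of Clec4e and Capn6 in shared gels were not called when either gel was left out.

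More genes of MMPs and their inhibitors (TIMPs) were higher in NFs in shared gels than alone. Of 21 members tested, 17 were higher in NFs and 2 in tumor cells in shared gels, beside 29.6% and 26.2% of all genes. Alone these were 11 and 6, beside 30.6% and 28.5%. The median log2 fold change was 3.66 in shared gels and 2.12 alone, with groups at or under 3 counts set at 3 counts. As fitted, it was 3.75 and 2.12, beside 0.06 and 0.04 for all tested genes. The contrast changed for 12 members: 7 moved towards NFs, among them Mmp9, Mmp10, Mmp12 and Mmp25, which switched sides, and 5 moved towards tumor cells, beside 14.5% and 11.4% of all genes. The median change over the 21 was 0.16, and after subtraction it was -0.40, with 6 members towards NFs and 5 towards tumor cells.

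Mmp9, which encodes gelatinase B, had the highest NF level among the members that switched. It lies at ENSMUSG00000017737, chromosome 2, 164940780 to 164955850. In shared gels it was at 4443, 5350, 3880 and 6332 CPM in NFs and 550.5 and 263 CPM in tumor cells, with no overlap. Alone it was at 12.9 and 18.6 CPM in NFs and 199.7 and 106 CPM in tumor cells, with no overlap and the opposite order. The log2 fold change went from -3.12 ± 0.36, adjusted p = 0.000122 to 3.89 ± 0.35, adjusted p = 2.94e-05, a change of 7.01 ± 0.50, adjusted p = 7.07e-05. NFs rose by 8.38 on the log2 scale (adjusted p = 7.65e-06), and the tumor cell difference of 1.38 lay at the threshold (adjusted p = 0.05). Leukocytes are a common source of Mmp9 and Mmp12, and the sort of NFs from the glands had removed cells positive for CD45, the product of Ptprc. Over 9 leukocyte markers the summed level was 26.7 to 68.3 CPM in NFs of shared gels, 5.90 to 10.0 CPM in NFs alone and 56.3 to 314 CPM in tumor libraries, and the defining marker Ptprc was at 0.127 CPM or less in every library. Their part in the result was not tested.

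The stromelysins Mmp10 and Mmp3 showed the same pattern from different starting levels. Mmp10 was at 1094, 1791, 1273 and 2690 CPM in NFs and 46.7 and 20.02 CPM in tumor cells of shared gels, and at 3.105 and 5.75 CPM and 138 and 29.4 CPM alone (change 10.00 ± 0.99, adjusted p = 0.000304). Mmp3 was at 8730, 9337, 8870 and 13020 CPM in NFs and 509 and 1029 CPM in tumor cells of shared gels. Alone, its NF levels of 1047 and 780.1 CPM and tumor levels of 831 and 864 CPM were not called as different (adjusted p = 0.505), and the change was 3.73 ± 0.36, adjusted p = 0.000261. The macrophage elastase gene Mmp12 was at 41.3, 151, 33.7 and 158 CPM in NFs of shared gels, with CD26+ NFs above CD26- NFs in both gels, and at 0.373 and 0.281 CPM in NFs alone (change 7.95 ± 0.64, adjusted p = 0.000122). The collagenase gene Mmp13 was at 1355, 5032, 1962 and 5391 CPM in NFs and 2114 and 1714 CPM in tumor cells. CD26- and CD26+ NFs lay on different sides of the tumor library in gel 4, the groups overlapped, and the contrast in shared gels was not called (adjusted p = 0.0667).

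**Figure D2:**
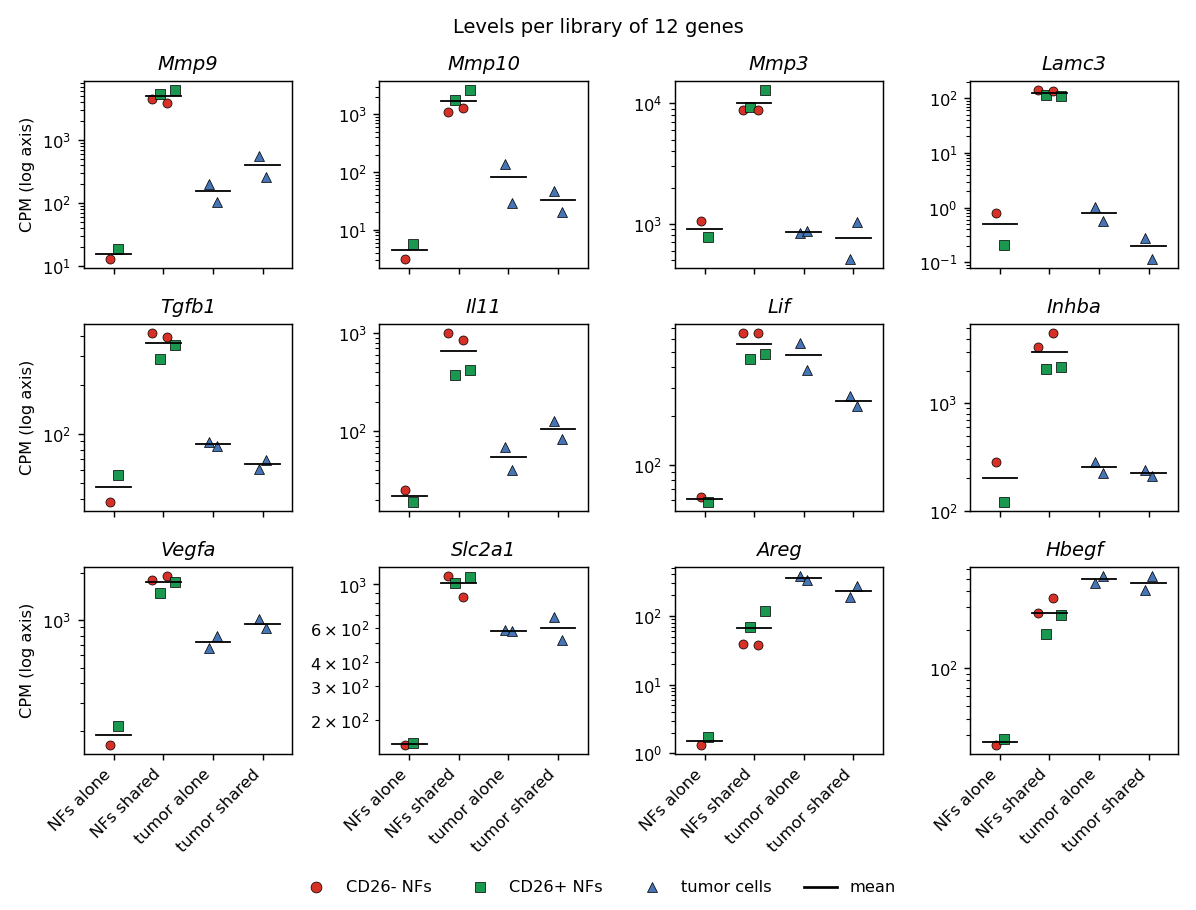
CPM of 12 genes in the 10 libraries on logarithmic axes, with circles for CD26- NFs, squares for CD26+ NFs, triangles for tumor cells and a line at each group's mean. Mmp9 lay at 3880 to 6332 CPM in NFs of shared gels and at 12.9 to 18.6 CPM in NFs alone.

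Mmp3, Mmp10, Mmp12 and Mmp13 lie in a cluster on chromosome 9, and the promoters of 3 of them are shown to let their sequence be read beside these levels. The 250 bases before a listed start of each gene were taken from RefSeq (GRCm38.p6, plus strand for these 3 genes). Of several listed starts, the first with a match is shown. Capitals mark matches to TGANTCA, the AP-1 motif, which reads alike on both strands.
Mmp3, chr9:7445572-7445821: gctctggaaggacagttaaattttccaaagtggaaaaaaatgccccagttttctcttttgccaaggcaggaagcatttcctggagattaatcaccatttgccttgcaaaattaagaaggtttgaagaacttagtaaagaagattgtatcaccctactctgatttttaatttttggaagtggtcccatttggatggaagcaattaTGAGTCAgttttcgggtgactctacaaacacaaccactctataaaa
Mmp10, chr9:7502092-7502341: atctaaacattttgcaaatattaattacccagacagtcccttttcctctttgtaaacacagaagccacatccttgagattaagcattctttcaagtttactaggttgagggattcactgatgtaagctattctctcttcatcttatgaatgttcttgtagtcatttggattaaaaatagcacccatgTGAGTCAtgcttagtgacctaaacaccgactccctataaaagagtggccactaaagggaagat
Mmp13, chr9:7272264-7272513: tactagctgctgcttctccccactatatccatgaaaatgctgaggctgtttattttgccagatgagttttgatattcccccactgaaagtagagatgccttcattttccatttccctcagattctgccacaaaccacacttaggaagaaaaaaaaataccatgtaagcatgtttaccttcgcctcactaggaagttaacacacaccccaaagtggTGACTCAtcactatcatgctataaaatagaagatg
The match began 46 bases before the start in Mmp3, 63 in Mmp10 and 35 in Mmp13. Of 17 MMP and TIMP genes with an entry, 5 held a match (29.4%: Mmp3, Mmp7, Mmp10, Mmp12 and Mmp13), against 7.82% of 27025 genes and 6.75% of 32851 windows. The match of Mmp12 is not shown. A match is a sequence description and not evidence of binding.

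Other members of the family kept or lost their NF excess. Mmp2 (gelatinase A) was at 3003, 3638, 2308 and 3478 CPM in NFs and 42.3 and 16.4 CPM in tumor cells of shared gels, and at 2919 and 4492 CPM and 3.96 and 2.74 CPM alone. Its excess in NFs shrank (change -3.22 on the log2 scale, adjusted p = 0.00112), with tumor cells higher in shared gels (3.04 ± 0.35, adjusted p = 0.00314) and no called change in NFs (adjusted p = 0.588). Mmp11, Mmp19 and Mmp23 shrank from the NF side as well, with changes of -0.95, -2.48 and -2.12. Timp3, an inhibitor that stays bound to matrix, grew towards NFs: it was at 660.4, 336, 734 and 295 CPM in NFs and 15.5 and 18.02 CPM in tumor cells of shared gels. In this case tumor cells fell from 107 and 69.8 CPM alone (-2.42 ± 0.24, adjusted p = 0.00215), and NFs were not called as changed. Overlapping genes cover 21.3% of the exon bases of Timp3 and 28.3% of those of Mmp19. The membrane-bound collagenase gene Mmp14 was called for no change of contrast (adjusted p = 0.217).

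Most collagen chains remained higher in NFs, and the NF excess of 9 of them shrank. Of 21 chains tested, 17 were higher in NFs in shared gels and 3 in tumor cells, beside 29.6% and 26.2% of all genes, against 15 and 4 alone, beside 30.6% and 28.5%. The median log2 fold change was 2.72 in shared gels and 6.92 alone. An NF excess shrank for 9 chains and a tumor excess for 4 (Col7a1, Col8a1, Col17a1 and Col18a1), beside 6.36% and 9.41% of all genes, and 2 grew towards NFs (3.2% of all genes). The median change of contrast was -0.97. After subtraction 7 chains moved towards tumor cells and 6 towards NFs, with a median change of -0.73.

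Col1a1, the main chain of fibrillar collagen I, was at 14340, 7882, 13750 and 9544 CPM in NFs and 89.1 and 28.1 CPM in tumor cells of shared gels. Alone it was at 18560 and 17370 CPM in NFs and 3.096 and 1.78 CPM in tumor cells. The log2 fold change fell from 13.00 to 7.90, a change of -5.10 ± 0.61, adjusted p = 0.000764. The NF arm was not called (adjusted p = 0.19), whereas tumor cells were 4.48 higher on the log2 scale (adjusted p = 0.00322). Col3a1 moved in both arms: NFs fell from 35670 and 34520 CPM alone to 10150, 5484, 13080 and 8105 CPM, and tumor cells rose from 0.326 and 0.127 CPM to 32.5 and 19.4 CPM. These tumor cell levels were under 2% of those in any NF library of the same gel and above the median carried-over share. Whether tumor cells made them was not tested. After subtraction the change remained called for Col1a1 (-4.84, adjusted p = 0.00293) and Col3a1 (-8.28, adjusted p = 0.000378).

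Col5a2 rose in NFs, from 3705 and 3543 CPM alone to 7597, 5706, 8736 and 5834 CPM in shared gels. Its contrast shrank as counted (-4.91) and was not called as changed after subtraction (adjusted p = 0.268). Col7a1, the chain of anchoring fibrils made by epithelium and fibroblasts, was higher in tumor cells alone, at 263 and 143 CPM against 7.39 and 9.47 CPM in NFs. In shared gels NFs were at 437, 389, 443 and 441 CPM and tumor cells at 539 and 432 CPM, and the groups no longer differed beyond their spread (adjusted p = 0.909, change 4.48 ± 0.39, adjusted p = 0.000165). Col17a1, a hemidesmosome collagen, fell in tumor cells from 45.5 and 41.9 CPM alone to 4.24 and 9.697 CPM. Col4a1 and Col4a2, the basement membrane chains, grew towards NFs by 1.30 and 1.54.

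Genes of glycolysis and the hypoxia response lost much of their tumor excess, and the movement lay in NFs. Of 22 tested, 19 were higher in tumor cells alone and 1 in NFs, beside 28.5% and 30.6% of all genes. In shared gels 11 were higher in tumor cells and 6 in NFs, beside 26.2% and 29.6%. The median log2 fold change was -2.07 alone and -0.47 in shared gels. The contrast moved towards NFs for 19 and towards tumor cells for 1, beside 14.5% and 11.4% of all genes. In NFs 21 of the 22 rose between NFs alone and shared gels and 1 fell (median 1.97), beside 24.1% and 20.4% of all genes. No member was called in tumor cells, where 3.07% and 3.09% of all genes were.

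Slc2a1, the glucose transporter GLUT1, was at 1108, 1021, 857 and 1097 CPM in NFs and 676 and 518 CPM in tumor cells of shared gels. Alone it was at 148 and 153 CPM in NFs and 582 and 573 CPM in tumor cells. NFs thus went from below both tumor libraries to above both, and the change was 2.79 ± 0.25, adjusted p = 0.000196. Egln3, an oxygen-sensing prolyl hydroxylase and target of the hypoxia-inducible factors, rose in NFs from 4.84 and 10.3 CPM to 224, 263, 258 and 343 CPM, with tumor cells at 24.3 and 4.11 CPM (change 5.32 ± 0.98, adjusted p = 0.00563). Car9, the carbonic anhydrase that exports acid under hypoxia, was at 0.0621 and 0.281 CPM in NFs alone and at 32.4, 34.6, 32.8 and 41.4 CPM in NFs of shared gels. Tumor cells held 78.4 and 70.4 CPM and remained above every NF library. Hk2 (hexokinase 2) went the other way: NFs fell from 385 and 294 CPM to 188, 201, 153 and 149 CPM and the contrast switched to tumor cells (-1.16 ± 0.20, adjusted p = 0.00402). After subtraction of carried-over counts, 17 members still moved towards NFs and 1 towards tumor cells.

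Promoters of 3 of these genes are shown with matches to ACGTG, the core of the hypoxia response element, in capitals. The sequences are the 250 bases before a listed gene start from RefSeq (GRCm38.p6), 5′ to 3′ on the gene's strand. Of several listed starts, the first with a match is shown. Both strands were searched, so that a match may read CACGT.
Slc2a1, chr4:119108495-119108744, plus strand: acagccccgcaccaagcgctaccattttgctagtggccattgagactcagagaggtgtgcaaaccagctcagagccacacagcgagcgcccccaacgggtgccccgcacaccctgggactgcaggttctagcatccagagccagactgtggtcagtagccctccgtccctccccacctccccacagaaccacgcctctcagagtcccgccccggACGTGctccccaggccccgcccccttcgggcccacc
Egln3, chr12:54203875-54204124, minus strand: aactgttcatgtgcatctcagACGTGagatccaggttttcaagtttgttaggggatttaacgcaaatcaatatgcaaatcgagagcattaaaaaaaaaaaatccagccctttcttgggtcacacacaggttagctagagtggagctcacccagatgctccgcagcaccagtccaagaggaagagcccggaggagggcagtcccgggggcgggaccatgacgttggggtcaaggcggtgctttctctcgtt
Ankrd37, chr8:45999851-46000100, minus strand: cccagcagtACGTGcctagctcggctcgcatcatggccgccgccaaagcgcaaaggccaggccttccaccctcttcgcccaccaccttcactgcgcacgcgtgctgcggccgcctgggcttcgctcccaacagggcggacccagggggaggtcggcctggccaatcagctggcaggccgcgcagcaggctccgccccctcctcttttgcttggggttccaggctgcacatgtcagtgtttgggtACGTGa
The match began 36 bases before the start in Slc2a1 and 229 in Egln3, and Ankrd37 held 2, at 241 and 6 bases. A match was found in 13 of 21 glycolysis and hypoxia genes with an entry (61.9%), against 18.5% of 27025 genes and 16.6% of 32851 windows. ACGTG also lies within the E-box CACGTG. Ankrd37 was at 15.9, 18.9, 11.8 and 28.5 CPM in NFs of shared gels and 0.683 and 1.97 CPM in NFs alone (change 3.76 ± 0.50, adjusted p = 0.00121), and 26.4% of its exon bases are covered by another gene.

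Cell cycle genes moved further to the tumor side. Of 25 tested, 24 were higher in tumor cells and 1 in NFs in shared gels, against 23 and 0 alone, beside 26.2% and 28.5% of all genes higher in tumor cells in these settings, with a median log2 fold change of -2.74 and -2.19. The contrast grew towards tumor cells for 9 (Ccna2, Mcm2, Mcm3, Mcm4, Mcm5, Mcm6, Mki67, Rrm2 and Tyms), beside 3.43% of all genes, and shrank for Cenpa. In NFs 14 members fell and 2 rose between NFs alone and shared gels, beside 20.4% and 24.1% of all genes. In tumor cells none was called, beside 6.16% of all genes. Mki67, which marks cycling cells, was at 10.3, 4.82, 16.4 and 7.64 CPM in NFs and 90.9 and 155 CPM in tumor cells of shared gels. Alone it was at 44.1 and 13.1 CPM and 134 and 205 CPM, with no overlap in either setting (change -0.88 ± 0.18, adjusted p = 0.00921; after subtraction -2.03, adjusted p = 0.014). The replication helicase subunit gene Mcm6 was at 4.12, 5.33, 7.65 and 10.8 CPM in NFs and 69.1 and 111 CPM in tumor cells of shared gels, against 21.3 and 13.1 CPM in NFs alone (change -1.77 ± 0.24, adjusted p = 0.00125). After subtraction 12 members moved towards tumor cells.

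Most epithelial junction and keratin genes were higher in tumor cells in both settings. Of 23 tight junction and desmosome genes, 22 were higher in tumor cells in shared gels and 22 alone, beside 26.2% and 28.5% of all genes, and none was higher in NFs. Of 13 keratins, 10 were higher in tumor cells and 2 in NFs in shared gels, beside 26.2% and 29.6% of all genes. With groups set at the floor where needed, the median log2 fold change was -3.61 in shared gels and -5.43 alone for junction genes, and -3.78 and -6.78 for keratins. A tumor excess shrank for 14 junction genes and 9 keratins, beside 9.41% of all genes. Among the 41 genes that set the share were 4 junction genes and 2 keratins. After subtraction 6 junction genes and 3 keratins still moved towards NFs, and 2 junction genes moved towards tumor cells. Cldn4, a tight junction claudin, was at 0 CPM in both libraries of NFs alone, 4.54, 6.49, 3.91 and 12.4 CPM in NFs of shared gels and 259.5 and 219 CPM in their tumor cells. After subtraction its change of contrast was not called (adjusted p = 1). Whether NFs expressed any of these genes themselves was not tested.

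**Figure D3:**
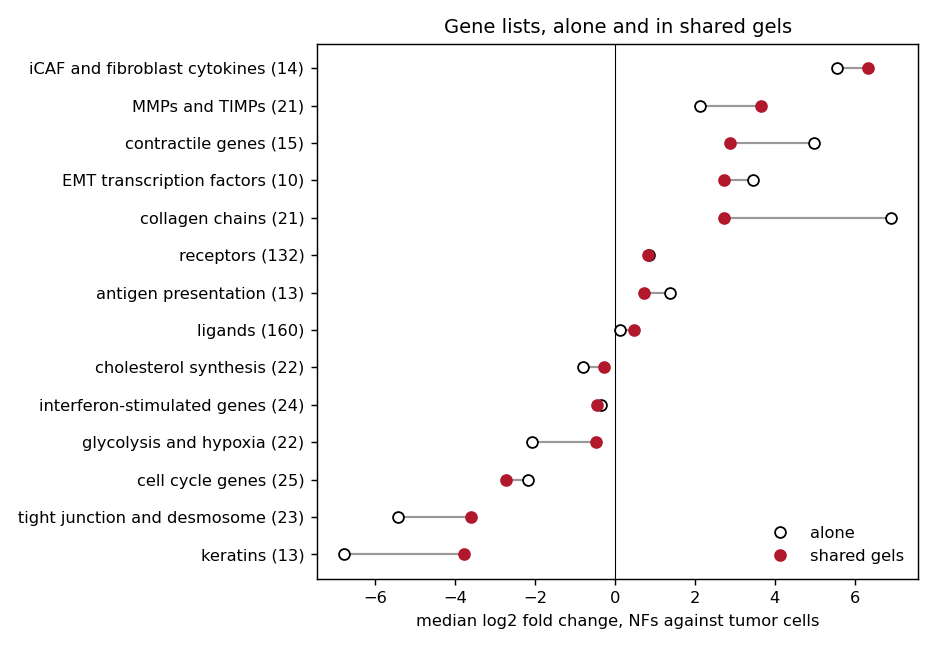
Median log2 fold change of NFs over tumor cells in 14 gene lists, alone (open symbols) and in shared gels (filled symbols), with groups at or under 3 counts set at 3 counts. Collagen chains went from 6.92 to 2.72, glycolysis and hypoxia genes from -2.07 to -0.47, and MMPs and TIMPs from 2.12 to 3.66.

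Contractile genes were mostly higher in NFs. Of 15 tested, 10 were higher in NFs and 1 in tumor cells in shared gels, beside 29.6% and 26.2% of all genes. An NF excess shrank for 5 (Acta2, Cnn1, Cnn2, Myl9 and Mylk), beside 6.36%. A tumor excess shrank for Smtn, and the contrast of Tpm1 grew towards tumor cells. Acta2 (smooth muscle actin, a myofibroblast gene) was at 238, 80.2, 359.7 and 152 CPM in NFs of shared gels, higher in CD26- than in CD26+ NFs in both gels, and 574 and 342 CPM in NFs alone. Its change in NFs was -1.25 ± 0.18, adjusted p = 0.000866. The change of its contrast (-2.84 ± 0.82, adjusted p = 0.0359) was not called after subtraction (adjusted p = 0.188). Tumor cells held at most 0.396 CPM in any library. Myl9, a myosin light chain, fell in NFs from 154 and 117 CPM to 30.7, 16.4, 34.6 and 23.6 CPM (-2.36 ± 0.12, adjusted p = 6.46e-06). A list of 5 pericyte markers summed to 85.2 to 293 CPM in NFs of shared gels and 23.0 to 34.8 CPM in NFs alone. Cspg4 and Mcam rose and carried the sum, 2 other members fell, and the part of this list in the results was not tested. A list of 5 adipocyte markers summed to 1038 and 1530 CPM in NFs alone and 116.3 to 340.5 CPM in NFs of shared gels. Lpl carried this sum, while Fabp4 fell in CD26- NFs and rose in CD26+ NFs. The part of the adipocyte list was not tested either.

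Of 10 genes of epithelial-mesenchymal transition factors, 7 were higher in NFs and 2 in tumor cells in shared gels, beside 29.6% and 26.2% of all genes. Snai2 shrank from the NF side, with NFs at 9.94, 7.52, 9.32 and 6.79 CPM in shared gels and 50.7 and 47.8 CPM alone (-2.26 ± 0.28, adjusted p = 0.000915), while Snai1 switched to tumor cells (-1.44 ± 0.26, adjusted p = 0.005). Zeb1 was not called as changed (-0.23 ± 0.28, adjusted p = 0.609). Of 24 interferon-stimulated genes, 2 were higher in NFs and 6 in tumor cells, beside 29.6% and 26.2% of all genes. Between NFs alone and NFs of shared gels 13 fell and none rose, beside 20.4% and 24.1% of all genes. In tumor cells 5 fell and none rose, beside 3.09% and 3.07%.

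Of 13 antigen presentation genes, 9 were higher in NFs and 3 in tumor cells in shared gels, beside 29.6% and 26.2% of all genes. The class I genes H2-K1 and H2-D1, close paralogs whose reads may be split, switched to NFs. H2-K1 was at 289.8, 399.7, 276 and 446 CPM in NFs of shared gels, 256 and 296 CPM in their tumor cells and 63.1 and 129.8 CPM in NFs alone (1.81 ± 0.19, adjusted p = 0.000389). Of 22 cholesterol synthesis genes, 16 were higher in tumor cells alone and 8 in shared gels, beside 28.5% and 26.2% of all genes. In NFs 14 rose and 3 fell, beside 24.1% and 20.4%. Of 14 cytokines and markers of inflammatory fibroblasts, 10 were higher in NFs in shared gels and 10 alone, beside 29.6% and 30.6% of all genes. In NFs 3 of the 14 rose and 8 fell, beside 24.1% and 20.4%. Cxcl12, a chemokine of fibroblasts, was at 2037 and 1024 CPM in NFs alone and at 42.9, 35.1, 53.8 and 36.7 CPM in NFs of shared gels (log2 change -5.07 ± 0.15, adjusted p = 4.97e-06). It had no count in any tumor library, so that the NF excess was at least 8020-fold alone and at least 246-fold in shared gels, and no change of contrast could be estimated.

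Dpp4 and Tnc complete the genes given in every library. Dpp4, by which the NF subsets had been sorted, was at 0 and 0.281 CPM in NFs alone, 0, 0.771, 0.0575 and 0.283 CPM in NFs of shared gels, 0 and 0.05704 CPM in their tumor cells and 0 and 0.0636 CPM in tumor cells alone. Most libraries were thus at or near the floor, and no fold is given. Tnc, which encodes the matrix protein tenascin C, was at 12140, 9196, 14870 and 9851 CPM in NFs and 3216 and 3982 CPM in tumor cells of shared gels, and at 997 and 1514 CPM and 408 and 987 CPM alone. Both cell types rose, by 3.25 ± 0.27, adjusted p = 4.99e-05 in NFs and 2.44 ± 0.28, adjusted p = 0.00314 in tumor cells on the log2 scale, and the contrast was not called as changed (0.82 ± 0.35, adjusted p = 0.119).

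Genes for secreted and surface ligands were split nearly evenly between the cell types alone, and more were higher in NFs than in tumor cells in shared gels. Of 160 ligands tested, 71 were higher in NFs and 55 in tumor cells in shared gels, beside 29.6% and 26.2% of all genes. Alone these were 67 and 68, beside 30.6% and 28.5%. The median log2 fold change was 0.46 and 0.13. A ligand was put on the side of one cell type when it was called, differed by a log2 fold change over 2 and reached 1 CPM there. By this rule 47 ligands were on the NF side (29.4%, against 12.9% of all tested genes) and 37 on the tumor side (23.1%, against 6.05%). Alone these were 52 and 51, or 32.5% and 31.9%, against 14.2% and 9.79% of all genes. Of the tumor-side ligands alone 33 remained there in shared gels, as did 37 of those on the NF side, and 1 ligand (Ccl9) went from the NF to the tumor side.

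In NFs 79 ligands rose and 44 fell between cells alone and shared gels, beside 24.1% and 20.4% of all genes. In tumor cells 18 rose and 16 fell, beside 3.07% and 3.09%. For 39 ligands a tumor excess shrank (24.4%) and for 15 an NF excess did (9.38%), beside 9.41% and 6.36% of all genes. After subtraction 43 ligands moved towards NFs, in place of 56, and 25 towards tumor cells, in place of 26. Switches to NFs were made by 8 ligands (5.0%, beside 1.92% of all genes): Il11, Il34, Lif, Spp1, Tgfb1, Tnfsf9, Tslp and Vegfa. Growth towards NFs was seen for 9 (5.62%, beside 3.2%): Adm, Artn, Btc, Col4a1, Ereg, Gdnf, Inhba, Sema7a and Slit1.

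Among 10 tested ligands of the TGF-beta family in the pairs, Tgfb1, Inhba and Bmp7 moved towards NFs, Gdf11 moved towards tumor cells, and 6 were not called as changed. After subtraction the change of Bmp7 was no longer called (adjusted p = 0.0718). Tgfb1, the main activator of myofibroblasts, was at 419.8, 291, 393 and 352 CPM in NFs and 61.03 and 69.1 CPM in tumor cells of shared gels. Alone it was at 38.1 and 56.3 CPM in NFs and 89.03 and 84.5 CPM in tumor cells, so the order of the groups was reversed without overlap (change 3.45 ± 0.22, adjusted p = 5.33e-05). Its tumor excess alone (adjusted p = 0.00346) was not called without gel 5. Inhba, the activin A subunit, was at 3346, 2059, 4534 and 2152 CPM in NFs and 239 and 209 CPM in tumor cells of shared gels. Its NF levels alone, 283 and 119.6 CPM, overlapped those of tumor cells alone, 285 and 223 CPM, and the change was 4.22 ± 0.33, adjusted p = 0.000103. CD26- NFs held more of it than CD26+ NFs in all 3 gels.

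Il11 and Lif, cytokines of the interleukin-6 family, switched to NFs. Of the same family a tumor excess shrank for Clcf1 (2.33, adjusted p = 0.000261) and Osm (4.75, adjusted p = 0.0336), and Il6 and Ctf1 were not called as changed (adjusted p = 0.111 and 0.136). Il11 was at 1013, 371, 859 and 420.4 CPM in NFs and 127 and 83.7 CPM in tumor cells of shared gels, and at 25.02 and 18.9 CPM and 68.8 and 40.1 CPM alone (change 3.93 ± 0.35, adjusted p = 0.000201). Lif was at 567 and 387 CPM in tumor cells and 63.3 and 58.3 CPM in NFs alone. In shared gels NFs were at 657, 448, 654 and 485 CPM and tumor cells at 267 and 229.8 CPM, so the highest source changed from tumor cells to NFs (change 4.20 ± 0.29, adjusted p = 6.13e-05). Spp1 (osteopontin) was abundant in both cell types and was higher in NFs of shared gels, at 7154, 8572, 8404 and 11910 CPM against 3618 and 3592 CPM in tumor cells (change 2.56 ± 0.28, adjusted p = 0.000481). Another gene covers 18.8% of the exon bases of Spp1.

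Of the vascular growth factor ligands in the pairs, Vegfa switched to NFs, a tumor excess of Pgf shrank, and Vegfb and Vegfc were not called as changed (adjusted p = 0.527 and 0.987). Vegfa was at 1805, 1497, 1910 and 1752 CPM in NFs and 1015 and 889.6 CPM in tumor cells of shared gels, and at 162 and 214 CPM and 666 and 797 CPM alone (change 2.90 ± 0.24, adjusted p = 0.00015). Pgf, placental growth factor, had its tumor excess shrink: NFs rose from 0.0621 and 0.912 CPM alone to 102, 167, 114 and 280.4 CPM, which overlapped the tumor level of 233 and 168 CPM (adjusted p = 0.477 in shared gels, change 7.91 ± 0.62, adjusted p = 0.000107).

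Among ligands of the epidermal growth factor receptor, Ereg was an NF gene, at 634, 516, 624 and 506 CPM in NFs and 0.509 and 1.37 CPM in tumor cells of shared gels, and its excess grew (2.51 ± 0.40, adjusted p = 0.00268). Areg was higher in tumor cells, at 186 and 276 CPM against 39.5, 69.9, 37.3 and 117 CPM in NFs, where it had been at 1.304 and 1.75 CPM alone (change 6.03 ± 0.41, adjusted p = 5.6e-05). Hbegf was at 410 and 529.5 CPM in tumor cells and 271, 184, 357 and 262 CPM in NFs of shared gels, with 24.6 and 27.7 CPM in NFs alone (change 3.48 ± 0.22, adjusted p = 5.33e-05). Tgfa remained a tumor gene, at 143 and 215 CPM against 2.73, 4.11, 5.12 and 6.79 CPM in NFs, and the direction of its change of contrast depended on carried-over counts: it was 1.65 as counted and negative after subtraction.

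The NF excess of Igf1, Gas6, Postn and Hgf shrank. Igf1 (insulin-like growth factor 1) was at 2106 and 1029 CPM in NFs alone, 13.9, 26.9, 18.99 and 31.8 CPM in NFs of shared gels and 0.113 and 0.171 CPM in their tumor cells. NFs fell (log2 change -6.03 ± 0.14, adjusted p = 1.38e-06), and the NF excess was at least 8213-fold alone, where tumor cells had no count. Gas6, a ligand of the TAM receptors, fell in NFs from 2257 and 2132 CPM to 65.9, 110, 65.8 and 107 CPM (change of contrast -4.44 ± 0.40, adjusted p = 0.000199). For Postn (periostin, a matrix protein) NFs did not fall: they were at 4681, 1969, 6224 and 2313 CPM in shared gels and 1791 and 1885 CPM alone, and tumor cells rose from 0.163 and 0.573 CPM alone to 31.3 and 22.4 CPM. Hgf, the ligand of Met, was in NFs at 103 and 88.9 CPM alone and 99.2, 122, 85.8 and 69.6 CPM in shared gels, and tumor cells rose to 1.36 and 1.54 CPM from 1 count or fewer in each library alone. The tumor levels of Postn and Hgf in shared gels were under 3% of those in any NF library of the same gel, and whether tumor cells made them was not tested.

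Receptors were found on the NF side more often than on the tumor side. Of 132 tested, 62 were higher in NFs and 33 in tumor cells in shared gels, beside 29.6% and 26.2% of all genes. Alone these were 66 and 34, beside 30.6% and 28.5%. With groups at or under 3 counts set at 3 counts, the median log2 fold change was 0.82 in shared gels and 0.84 alone. By the rule above 43 were on the NF side (32.6%) and 13 on the tumor side (9.85%), beside 12.9% and 6.05% of all genes. Alone these were 49 and 20 (37.1% and 15.2%), beside 14.2% and 9.79%. An NF excess shrank for 19 receptors and a tumor excess for 19 (14.4% each), beside 6.36% and 9.41% of all genes. The contrast grew for 8 and switched for 6, which were 1.52 to 3.79% of receptors in any direction, beside 1.57 to 3.43% of all genes. In NFs 41 receptors rose and 34 fell, beside 24.1% and 20.4% of all genes, and in tumor cells 9 rose and 8 fell, beside 3.07% and 3.09%.

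Egfr, Pdgfra and Pdgfrb remained on the NF side. Egfr was at 497, 643, 494 and 652 CPM in NFs and 35.5 and 29.2 CPM in tumor cells of shared gels, and its contrast changed by -0.16 ± 0.25, adjusted p = 0.725. Il1r1, the interleukin-1 receptor, fell in NFs from 1040 and 636 CPM alone to 210.3, 156, 187 and 152 CPM, and tumor cells of shared gels held 15.2 and 5.42 CPM (change -2.57 ± 0.51, adjusted p = 0.00792). This change was not called when either shared gel was left out, and the same was true of Met, Itga2, Pdgfrb and Tgfa. Pdgfrb was at 907, 483, 1262 and 747 CPM in NFs and 1.19 and 0.9697 CPM in tumor cells of shared gels, and had no count in tumor cells alone.

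Some receptors grew towards NFs or changed sides. Itgb3, the beta 3 integrin subunit, was at 10.4 to 17.7 CPM in all libraries of cells alone. In shared gels it was at 521, 419.9, 446 and 332 CPM in NFs and 158 and 126 CPM in tumor cells, so both cell types rose, by 5.04 ± 0.21, adjusted p = 2.6e-06 in NFs and 3.33 ± 0.20, adjusted p = 3e-04 in tumor cells on the log2 scale (change of contrast 1.71 ± 0.25, adjusted p = 0.00195). Notch3, a Notch receptor of mural cells and fibroblasts, rose in NFs from 28.2 and 68.9 CPM to 188, 125, 271 and 142 CPM (change 2.72 ± 0.43, adjusted p = 0.00289). Ngfr, the p75 neurotrophin receptor, fell in NFs from 10.2 and 110.3 CPM, where it was mostly in CD26+ NFs, to 0.606, 0.899, 0.633 and 2.76 CPM and switched to tumor cells, at 6.33 and 8.21 CPM (change -5.93 ± 0.41, adjusted p = 6.11e-05).

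Of 204 ligand-receptor pairs, 179 had both partners tested and 19 were split between the cell types in shared gels. In 5 of these the ligand was on the NF side and the receptor on the tumor side, and in 14 the ligand was on the tumor side. Alone 29 pairs were split, 9 and 20 in these directions. Split in both settings with the same direction were 13 pairs, 1 (Ccl9 with Ccr1) was split in opposite directions, 15 were split alone only and 5 in shared gels only. Both partners were on the NF side for 24 pairs in either setting, and on the tumor side for 6 pairs in shared gels and 14 alone. The number of split pairs was 19 after subtraction of carried-over counts, 13 without gel 4 and 13 without gel 5. Expression of both partners does not show that they met.

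Ligands of NFs and receptors of tumor cells included the pairs Hgf with Met, Wnt4 with Fzd6, Col1a1 with Itga2 and Tgfb1 with Itgb6. Met, the receptor tyrosine kinase for Hgf, was at 254 and 219 CPM in tumor cells and 10.54, 25.2, 9.15 and 16.6 CPM in NFs of shared gels (log2 fold change -3.85 ± 0.13, adjusted p = 1.57e-07). Its smaller contrast (change 1.68 ± 0.21, adjusted p = 0.000835) was not called after subtraction (adjusted p = 0.113). Hgf itself had a log2 fold change of 6.19 ± 0.28, adjusted p = 5.12e-07 in shared gels. Wnt4 was at 15.7, 5.08, 15.6 and 10.1 CPM in NFs, and its receptor gene Fzd6 was at 35.97 and 23.8 CPM in tumor cells. As counted, neither contrast was called as changed (adjusted p = 0.692 and 0.113), and after subtraction that of Fzd6 grew towards tumor cells (-1.16, adjusted p = 0.0461).

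Tgfb1 with Itgb6 was split in shared gels only. Itgb6 is the beta subunit of an integrin that activates latent TGF-beta, and it was at 13.6 and 10.9 CPM in tumor cells and 1.27, 2.18, 1.61 and 0.919 CPM in NFs of shared gels (log2 fold change -2.83 ± 0.28, adjusted p = 5.05e-05). It was on the tumor side alone too, and the new split came with Tgfb1, whose switch is given above. Itga2, a collagen receptor subunit, was at 156 and 302 CPM in tumor cells and 24.4, 75.2, 32.0 and 72.7 CPM in NFs (log2 fold change -2.07 ± 0.18, adjusted p = 2.06e-05), close to the limit of 2, and it was not called without gel 5.

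The ligand was on the tumor side and the receptor on the NF side in 14 pairs. Il1a with Il1r1, Tgfa with Egfr, Pdgfa with Pdgfra, Pdgfb with Pdgfrb, Wnt7b with Fzd1 and Edn1 with Ednra were split in both settings, with both partners at 10 CPM or more on their side. Pdgfb was at 58.2 and 58.3 CPM in tumor cells and 1.57, 1.03, 0.863 and 2.69 CPM in NFs of shared gels, and Pdgfrb stood on the other side with a log2 fold change of 9.72 ± 0.31, adjusted p = 3.26e-07. Pdgfa, of whose exon bases 26.1% are covered by another gene, rose in both cell types, by 1.92 ± 0.16, adjusted p = 5.24e-05 in NFs and 1.52 ± 0.16, adjusted p = 0.00275 in tumor cells. Wnt7b was at 402 and 383 CPM in tumor cells and 9.88, 12.8, 8.12 and 18.1 CPM in NFs, and Fzd1 was at 85.01, 56.2, 102 and 80.5 CPM in NFs. The smaller contrasts of Pdgfb and Wnt7b in shared gels were no longer called after subtraction (adjusted p = 0.434 and 0.16).

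Vegfb with Flt1 and Efna5 with Epha3 and Epha4 were split in shared gels only. Efna5 (ephrin A5) fell in NFs from 26.1 and 34.5 CPM to 3.999, 6.94, 4.43 and 5.45 CPM and was at 48.4 and 55.95 CPM in tumor cells of shared gels (change -1.89 ± 0.23, adjusted p = 0.000745). Flt1, a VEGF receptor, was at 21.1, 21.9, 41.7 and 39.2 CPM in NFs and 9.56 and 5.93 CPM in tumor cells, and both Vegfb (log2 fold change -2.02 ± 0.13, adjusted p = 3.71e-06) and Flt1 (2.11 ± 0.36, adjusted p = 0.00126) were close to the limit of 2. The remaining pairs with tumor ligands were Csf2 with Csf2ra, Mst1 with Mst1r, Edn1 with Ednrb, Pthlh with Pth1r and Ccl9 with Ccr1, each with a partner under 10 CPM. Csf2 was at 13.46 and 29.8 CPM in tumor cells and 0.909, 4.56, 1.899 and 5.66 CPM in NFs, and another gene on the other strand covers part of its exons. Ccl9 was at 43.5 and 34.7 CPM in NFs alone and at 0.182, 0.4497, 0.2302 and 1.41 CPM in NFs of shared gels, where tumor cells held 3.96 and 13.6 CPM. Ccr1, its receptor, was at 5.51, 12.1, 5.06 and 14.3 CPM in NFs of shared gels and at most 1.34 CPM elsewhere.

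**Figure D4:**
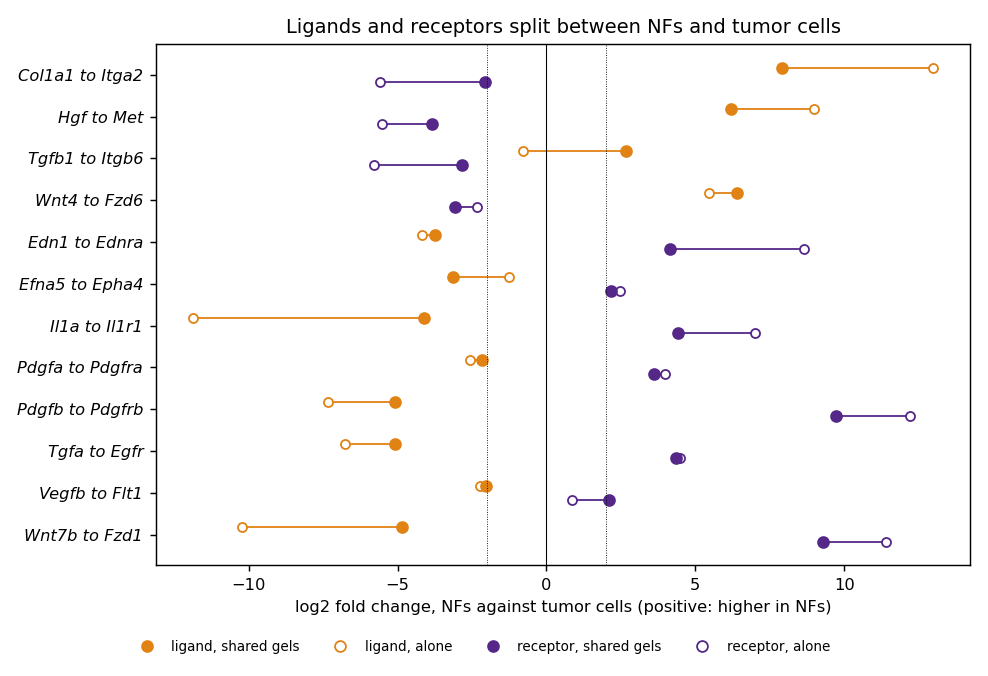
Log2 fold change of NFs over tumor cells for ligand (orange) and receptor (purple) of the 12 split pairs with both partners at 10 CPM or more, alone (open) and in shared gels (filled), with dotted lines at 2 and -2. Tgfb1 moved from -0.78 to 2.67, and Pdgfb and Pdgfrb stayed on opposite sides.

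Pairs that were split alone only lost mostly their ligand. In 12 of 15 the ligand was on neither side by the rule above in shared gels, in 7 the receptor was not, and in 5 neither was. Ptn and Cxcr2 still differed by more than the limit of 2 and left their side because their means were under 1 CPM. Tumor ligands that fell out this way were Lif (with Lifr), Areg, Hbegf and Epgn (with Egfr), Tnf (with Tnfrsf1a), Jag2 (with Notch3), Edn2 (with Ednra), Efnb3 (with Ephb6) and Enpp2 (with Lpar1). Lifr remained at 113, 131, 109 and 101 CPM in NFs of shared gels against 1 count or fewer in each tumor library, while Lif was higher in NFs by less than the limit (log2 fold change 1.36). Enpp2, which makes lysophosphatidic acid, fell in tumor cells from 188 and 104 CPM alone to 44.1 and 21.5 CPM and rose in NFs from 2.17 and 24.3 CPM to 27.1, 68.7, 21.8 and 46.95 CPM (change 4.60 ± 0.31, adjusted p = 5.6e-05). For Wnt10a with Fzd2 only the receptor fell out. Ptn and Mdk with Ptprz1, Cxcl2 with Cxcr2 and Cxcl10 with Cxcr3 had been split with the ligand in NFs. Ccl7 with Ccr1 came to have both partners on the NF side.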

How the data were processed

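Per the labels, total RNA from column purification with DNase was made into stranded mRNA libraries and sequenced in paired-end mode. The authors deposited 1 table of raw counts for every gene, without normalization, and HISAT2 2.2.1 and GRCm38 are named in the submitters' processing notes. How reads were counted, whether strand was used and which annotation served were not given in the sources used here, so counts of overlapping genes and close paralogs are uncertain (overlap of exons was measured in GENCODE M21). A row with no gene ID, at 0 counts, was left out, and no column of sample values was unused.

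Libraries held 14142334 to 18408940 counts, and floors of 3 counts cover counting error only, as PCR copies were not marked by molecular identifiers. Replicate libraries differed by more than sampling noise (chi-square per degree of freedom 18.5 to 61.1), so that no library was a copy of another.

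All 10 libraries were fitted in edgeR 4.0.16 (limma 3.58.1, R 4.3.3) with TMM scaling, filterByExpr, a quasi-likelihood F test and Benjamini-Hochberg adjustment. Of 55486 genes, 17048 passed the filter. Terms were 6 cell and culture groups and a block for the gel or tumor line, with 3 residual degrees of freedom. The block rests on the labels, by which the 3 libraries of a shared gel grew together. The mean of both NF subsets was set against tumor cells in shared gels and alone, and the difference of these contrasts was tested in the same fit. The script was tested on simulated data with 200 changed genes. Figures were drawn in matplotlib 3.10.9.

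Members, lists and ligand-receptor pairs were chosen with earlier results of these data known. Named genes were the 6 highest and 6 lowest log2 fold changes in shared gels at 10 CPM or more with the same direction in both subsets and gels, the 4 largest changes of contrast in each class, partners of split pairs at 10 CPM or more, and Epcam, Col1a1, Cdh1, Dpp4, Cxcl12, Mmp9 and Tnc. Other named genes are list members chosen after their values were seen. A further gene targeted in the tumor model is not reported here.

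Alternatives were RLE scaling, library totals, other filters, DESeq2 1.42.0, other uses of the block, single NF subsets, leaving out libraries or gels, smaller fits, thresholds of effect size and subtraction of carried-over counts.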

Additional observations from a re-analysis of the deposited data

Results flagged for a closer look

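For 4415 genes the contrast of NFs with tumor cells differed between shared gels and cells alone, by the test of that difference. Those taken in the order of fitted change, and Mmp9 and Col1a1, are given with the log2 fold change in shared gels minus that alone. Of those so taken, Cox4i2 is left out, as its class could not be decided at the floor. Its call was also lost after subtraction (adjusted p = 0.0524). Groups at or under 3 counts were set at 3 counts where needed, so that the value of such a gene depends on this floor.

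NF excess shrank for H19 (-11.03), Scn7a (-10.60), Chl1 (-9.97), Ecrg4 (-8.86) and Col1a1 (-5.10). Tumor excess shrank for Il1a (7.77), Krt18 (7.57), Pkp1 (7.05) and Wfdc2 (6.87), of which Krt18 and Wfdc2 were not called after subtraction of carried-over counts. Towards NFs the contrast grew for Lamc3 (10.27), Slco4a1 (7.85) and Kcnh1 (6.43). Towards tumor cells it grew for F13a1 (-5.26), Stxbp6 (-4.41), Gdpd2 (-4.37) and Tmem8 (-4.01). Sides were switched by Gsta2 (15.34), Upp1 (9.04), Clec4e (7.90) and Mmp9 (7.01), which went to NFs, and by Capn6 (-10.02), which went to tumor cells.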

How the results depend on the processing

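The directions and calls of most named results held under scaling by RLE or library totals, other filters and DESeq2. Called genes ranged from 8839 to 9925 in shared gels, 9364 to 10183 alone and 4277 to 5232 for the difference under these alternatives. Without the replicate block, counts were 8839, 9458 and 3439, and with the block set within cell type 10755, 11080 and 6275. Among named genes the missing block ended the call of the difference for P2ry12 and Tgfa. With CD26- NFs only, 2915 differences were called, and with CD26+ NFs only 3245. Leaving out 1 library at a time gave 6690 to 9518 genes in shared gels, 7936 to 10229 alone, 2892 to 4226 for the difference and 17 to 20 split pairs. The lowest count of differences, 2892, was without CD26- NFs of gel 5. Without gel 4 the counts were 4210 in shared gels and 584 for the difference, and without gel 5 they were 4005 and 909, each in a fit of 4 groups without the block that has fewer samples. Split pairs were 13 in both of these fits. Requiring an absolute log2 fold change over 2 left 4043 genes in shared gels, 4945 alone and 1781 differences, and a limit of 1 gave 36 split pairs. After subtraction of carried-over counts, Lama3 (-5.56, adjusted p = 0.00632) and Tgfa (-5.71, adjusted p = 0.00378) turned the direction of their difference. The fit with the 6 shared-gel libraries called 8986 genes and that with the 4 libraries of cells alone 6799. Over all values, 4216 kept direction and side of the threshold, 86 lost the call, 39 gained it, 37 counts moved by over 1.5 times and 2 reversed, those of Lama3 and Tgfa. RLE scaling moved the median log2 fold change in shared gels from 0.06 to 0.12 and library totals to -0.13. Levels under 3 counts in a library could not be sized.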
